A study of Mus musculus with 6 samples.

Results

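Glypicans and syndecans are the membrane-bound heparan sulphate proteoglycans, and 9 of their genes, Gpc1, Gpc2, Gpc3, Gpc4, Gpc6, Sdc1, Sdc2, Sdc3 and Sdc4, were followed here by symbol, out of 55471 genes with counts. All 9 held enough counts to be tested, among 13826 tested genes. RNA was sequenced from cultured calvarial osteoblasts, the bone-forming cells of the skull cap, of 3-day-old C57BL/6 mice, with 3 libraries labelled WT (wild type) and 3 labelled TCKO (triple conditional knockout). The TCKO mice carried Prx1-Cre together with floxed Tet1, Tet2 and Tet3 on both alleles. TET proteins oxidise methylated cytosine in DNA, and Prx1-Cre acts in mesenchyme of limb and skull, so that other cells of a culture can keep the genes. Cells were grown for 3 days before RNA was taken, and the labels do not say whether the WT mice carried floxed alleles or whether libraries came from separate animals. The p-values therefore measure the spread between libraries, which may be technical.

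Both families carry long heparan sulphate chains on a core protein at the cell surface. Glypicans are held in the outer leaflet of the membrane by a glycosylphosphatidylinositol anchor, whereas syndecans span the membrane and bind kinases and scaffold proteins with a short cytoplasmic tail. The chains bind FGF, BMP, Hedgehog and Wnt ligands and either present them to receptors or hold them back, and in bone both families are known for tuning these signals. Loss of GPC3 function in people causes an overgrowth syndrome with skeletal anomalies.

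Libraries held between 8019999 and 10177214 counts. Levels are given as CPM, counts relative to library size, and the floor, 3 counts that may go unseen when a gene is at 0, was 0.299 to 0.373 CPM per library. For Tet1, the WT libraries held 98, 131 and 115 counts and the TCKO libraries 68, 51 and 51, a log2 fold change of -0.97 ± 0.16 (SE; edgeR quasi-likelihood test, Benjamini-Hochberg adjusted p = 0.00648). Tet2 did not pass (-0.14, adjusted p = 0.545), and Tet3 was higher in the libraries labelled TCKO (0.51, adjusted p = 0.00745). Counts over the whole gene thus went with the labels for Tet1 alone, reads outside the deleted exons check nothing, and WT and TCKO name libraries here by their labels. Within each genotype, replicates 1 and 2 lay close together (chi-square per degree of freedom of 1.69 and 2.04), and replicate 3 stood apart (16.5 to 23.3). TCKO replicate 3 also held 4583 counts of Xist and 0 of Ddx3y, against 1 to 4 and 675 to 1094 elsewhere, the pattern of a female sample in a series otherwise of male pattern. Values within replicates 1 and 2 and within replicate 3 are therefore given for each member whose result they touch, and no test was made within them.

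Osteoblast markers summed to 40900 to 43690 CPM in WT and 22360 to 37140 CPM in TCKO. In WT this was mostly Col1a1, Sparc and Col1a2 (22330, 9881 and 8800 CPM on average), with Runx2 at 95.6 CPM. The late markers Bglap and Bglap2 were almost absent, with at most 2 and 5 counts. Of 9 tested osteoblast markers, Runx2, Alpl, Col1a1 and Sparc fell, Alpl most (from 30.4 ± 23.6 to 2.56 ± 1.22 CPM), and Spp1 rose from 1168 ± 515.3 to 7165 ± 3343 CPM. All 9 chondrocyte markers fell in TCKO, and their summed level was 6490 to 8407 CPM in WT against 747.1 to 1029 CPM in TCKO. Col2a1 carried most of this sum (6452 CPM on average in WT and 738 in TCKO). Macrophage and osteoclast markers summed to 404.1 to 756 CPM in WT and 162.8 to 575.4 CPM in TCKO, with 2 of 9 lower. Lyz2 carried most of this sum (512 and 357.9 CPM on average, not past the test). Endothelial markers summed to 2.10 to 3.27 CPM in WT and 34.5 to 95.1 CPM in TCKO, which was nearly all Kdr, while skeletal muscle markers summed to 9.68 to 29.9 and 35.4 to 85.6 CPM, adipocyte markers to 24 to 32.7 and 11.7 to 18.9 CPM, and neural markers to 76.4 to 99.4 and 76.2 to 85.3 CPM. Acta1 carried most of the muscle sum in TCKO (6.42 ± 4.15 CPM in WT and 55.8 ± 22.9 in TCKO). Cebpa carried most of the adipocyte sum (26.3 and 14.4 CPM, not past the test), while Adipoq and Plin1 had 0 counts in every library and Fabp4 at most 3. Tubb3 carried the neural sum (64.3 and 77.1 CPM, not past the test), within which S100b, also a gene of cartilage, fell from 17.1 ± 3.65 to 1.58 ± 0.707 CPM (adjusted p = 4.3e-04). Epithelial markers were at most 1.24 CPM in any library. In bulk RNA, fewer cells of a type and less RNA per cell cannot be told apart, and the part of these cell types in the values of the glypicans and syndecans was not tested.

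In both genotypes the syndecans and 3 of the glypicans were well expressed. Compared per length, in RPKM (CPM divided by exon length in kilobases), the WT order began with Sdc4 at 130.5 ± 24.4 (SD, n = 3), Sdc2 at 122.3 ± 18.0 and Gpc1 at 106.1 ± 2.10 RPKM. Sdc3, Gpc4, Gpc3 and Sdc1 followed between 70.0 and 43.5 RPKM, Gpc6 lay at 9.48 ± 1.74 and Gpc2 at 0.590 ± 0.128 RPKM. Within each of the first 2 sets neighbouring genes had overlapping ranges over libraries, while Gpc1 and Sdc3, Sdc1 and Gpc6, and Gpc6 and Gpc2 did not. In the TCKO libraries the order began with Sdc4 at 110.9 ± 5.35 and Gpc4 at 102.8 ± 2.66 RPKM, whose ranges overlapped. Sdc2, Sdc3, Gpc1 and Sdc1 came next, between 83.1 and 61.3 RPKM and each overlapping its neighbour, and below them Gpc3 (43.5 ± 4.36), Gpc6 (9.05 ± 1.96) and Gpc2 (1.03 ± 0.406 RPKM) each stood apart from the gene above. Gpc4 thus stood below Gpc1 in the WT order and above it in the TCKO order.

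**Figure D1:**
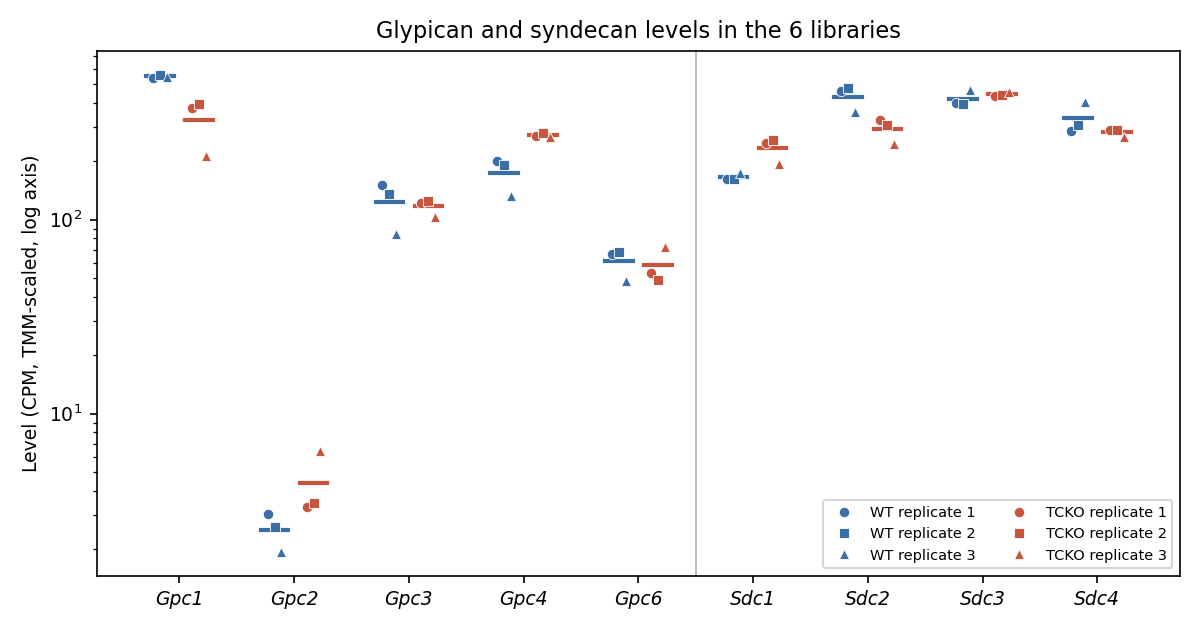
Level of each glypican and syndecan gene in the 6 libraries, in CPM on a log axis, with WT in blue, TCKO in red, a marker shape per replicate number and a bar at the mean of 3 libraries. Gpc1 and Sdc2 lay lower, and Gpc4 and Sdc1 higher, in each TCKO library than in any WT library, and Gpc2 was at most 6.39 CPM in any library.

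Of the 9 genes, 4 passed the test between TCKO and WT at an adjusted p under 0.05, which 17.7% of all tested genes did. Gpc4 and Sdc1 rose (9.07% of tested genes were higher at this threshold) and Gpc1 and Sdc2 fell (8.63% were lower). None of the 9 reached the study's cutoff of a fold change over 2 as well, either with edgeR, where 6.35% of tested genes met it, or with DESeq2. An unadjusted p under 0.05 was found for 5 of the 9 with edgeR and 4 with DESeq2. With edgeR, 4497 of all 13826 tested genes also had an unadjusted p under 0.05. CPM did not overlap between genotypes for 5 of the 9, against 38.3% of tested genes. The median log2 fold change was -0.07 over the 9 genes and 0.00 over all tested genes. Each family thus held a gene that rose and a gene that fell, by changes of 1.41-fold to 1.56-fold upwards and to 0.598 and 0.679 of the WT level downwards.

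**Figure D2:**
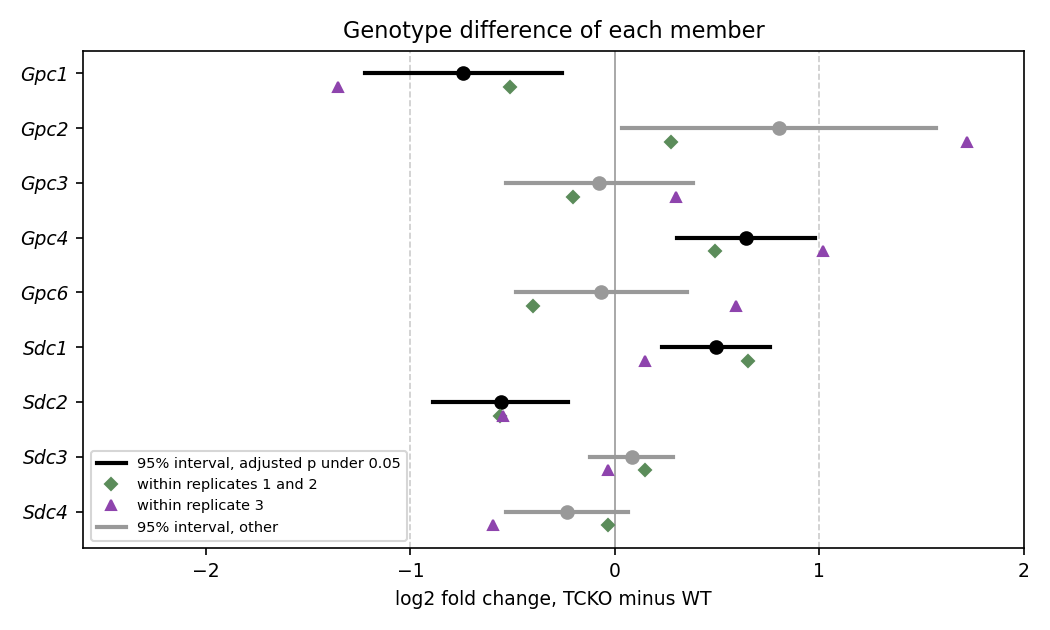
Log2 fold change of each gene, TCKO minus WT, with its 95% interval from the edgeR fit over 6 libraries (black where the adjusted p was under 0.05), and the difference within replicates 1 and 2 (diamond) and within replicate 3 (triangle). The intervals of Gpc1 and Sdc2 lie below 0 and those of Gpc4, Sdc1 and Gpc2 above it, although Gpc2 did not pass after adjustment. All 9 genes but Gpc3, Gpc6 and Sdc3 had both within-replicate differences on the same side of 0.

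Gpc1 encodes a widely expressed glypican that takes part in FGF and BMP signalling and was the glypican of highest level in WT. Its gene (ENSMUSG00000034220) lies on the plus strand at chr1:92831645-92860779 of GRCm38. Levels were 537.8, 559.2 and 545.5 CPM in the WT libraries and 375.3, 394.5 and 213.1 CPM in TCKO replicates 1 to 3. All TCKO libraries lay below all WT libraries, and TCKO replicate 3 was far below the other two. The log2 fold change was -0.74 ± 0.21 (SE; 95% interval -1.22 to -0.26; edgeR adjusted p = 0.0447), with -0.51 within replicates 1 and 2 and -1.36 within replicate 3. Without TCKO replicate 3 the change was -0.50 with an adjusted p of 0.00197, whereas without WT replicate 1, 2 or 3 or TCKO replicate 1 or 2 the adjusted p was 0.121, 0.134, 0.0693, 0.0789 and 0.0547. Exons of Gpc1 overlap those of Ankmy1 on the other strand, which held at most 5 counts.

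Gpc4 encodes a glypican of the same branch, known for work on Wnt and FGF signalling. Its gene (ENSMUSG00000031119) lies on the minus strand at chrX:52053021-52165252. Levels were 199.9, 191.7 and 132.3 CPM in WT and 269.4, 280.6 and 267.5 CPM in TCKO. The 3 TCKO libraries lay close together, above all WT libraries, and the lowest value was WT replicate 3. Gpc4 rose by a log2 fold change of 0.64 ± 0.15 (95% interval 0.30 to 0.98; edgeR adjusted p = 0.0221), with 0.49 within replicates 1 and 2 and 1.02 within replicate 3. Its adjusted p was 0.0540 without WT replicate 2, 0.0693 without TCKO replicate 1 and 0.0771 without TCKO replicate 2. Without TCKO replicate 3, the library of female pattern, it was 0.0250. The part of library sex in the level of this X-linked gene was not tested.

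Gpc3 is the neighbour of Gpc4 on the X chromosome, with 107173 bp between the genes, and belongs to the other branch of glypicans. Gpc3 itself is best known for restraining Hedgehog signalling. Its gene (ENSMUSG00000055653) spans chrX:52272426-52613950 on the minus strand. Levels were 150.5, 135.3 and 84.2 CPM in WT and 122.4, 125.0 and 103.5 CPM in TCKO, so that the TCKO libraries lay inside the WT range. The log2 fold change was -0.08 ± 0.20 (95% interval -0.54 to 0.38; edgeR adjusted p = 0.822), with -0.21 within replicates 1 and 2 and 0.30 within replicate 3. Among 13 tested genes within 1 Mb of the pair, Gpc4 and Hs6st2, a heparan sulphate sulphotransferase described further on, were those that passed the test, in opposite directions. That share is close to the 17.7% of all tested genes that passed.

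Gpc6, a glypican that stimulates Hedgehog signalling in the growth plate, has its gene (ENSMUSG00000058571) at chr14:116925315-117976544 on the plus strand. It measured 66.6, 68.1 and 48.0 CPM in WT and 53.0, 49.0 and 72.5 CPM in TCKO. The groups overlapped, because replicate 3 was the lowest WT library and the highest TCKO library. The log2 fold change was -0.07 ± 0.18 (95% interval -0.49 to 0.35; edgeR adjusted p = 0.833), with -0.40 within replicates 1 and 2 and 0.59 within replicate 3.

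Gpc2, known from developing neurons, was the gene of lowest level. Its gene (ENSMUSG00000029510) lies at chr5:138273655-138280005 on the minus strand, with 25, 26 and 16 counts in the WT libraries against 29, 28 and 57 in the TCKO libraries. These counts correspond to 3.03, 2.59 and 1.94 CPM in WT and 3.31, 3.48 and 6.39 CPM in TCKO. The groups did not overlap, yet replicates 1 and 2 of both genotypes lay close together and TCKO replicate 3 stood above them all. The log2 fold change of 0.80 ± 0.33 (95% interval 0.03 to 1.57) did not pass the edgeR test (adjusted p = 0.138), and it was 0.28 within replicates 1 and 2 and 1.72 within replicate 3.

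Sdc1 encodes the syndecan best known from epithelia and plasma cells. Its gene (ENSMUSG00000020592) lies on the plus strand at chr12:8771323-8793715. Levels were 161.8, 161.3 and 174.0 CPM in WT and 248.5, 258.6 and 192.9 CPM in TCKO. Again the groups did not overlap, but TCKO replicate 3 was the lowest of its group and nearest to WT. Sdc1 rose by a log2 fold change of 0.49 ± 0.12 (95% interval 0.23 to 0.76; edgeR adjusted p = 0.0235), with 0.65 within replicates 1 and 2 and 0.15 within replicate 3. The adjusted p was 0.0944 and 0.0960 without WT replicates 1 and 2, 0.0900 and 0.0890 without TCKO replicates 1 and 2, and 9.6e-04 without TCKO replicate 3. Epithelial markers were near 0 in all libraries, as given above, and no plasma cell markers were followed. The part of such cells in the level of Sdc1 was not tested.

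Sdc2, a syndecan of mesenchymal cells that has been studied in osteoblasts, had the highest level per length of the syndecans in WT replicates 1 and 2. Its gene (ENSMUSG00000022261) lies on the plus strand at chr15:32920723-33034935. Levels were 460.7, 474.8 and 358.2 CPM in WT and 325.8, 308.4 and 244.9 CPM in TCKO. Replicate 3 was the lowest library of both genotypes, and no TCKO library reached a WT library. For Sdc2 the log2 fold change was -0.56 ± 0.14 (95% interval -0.89 to -0.23; edgeR adjusted p = 0.0328), and the difference was alike within replicates 1 and 2 (-0.56) and within replicate 3 (-0.55). The adjusted p was 0.121 and 0.126 without WT replicates 1 and 2 and 0.0593 and 0.0846 without TCKO replicates 1 and 2.

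Sdc3, the syndecan best known from nerve and from the limb bud, shares a branch with Sdc1. Its gene (ENSMUSG00000025743) lies on the plus strand at chr4:130792537-130826319. It measured 397.9, 393.3 and 465.9 CPM in WT and 435.6, 441.0 and 454.7 CPM in TCKO, with the TCKO libraries inside the WT range. The log2 fold change of 0.08 ± 0.09 (95% interval -0.12 to 0.29) did not pass the edgeR test (adjusted p = 0.559).

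Sdc4, the syndecan of focal adhesions, shares a branch with Sdc2. Its gene (ENSMUSG00000017009) lies on the minus strand at chr2:164424247-164443887. It measured 287.0, 307.1 and 403.3 CPM in WT and 289.1, 291.4 and 266.7 CPM in TCKO. Replicates 1 and 2 of both genotypes were close, and WT replicate 3 stood above them. For Sdc4 the log2 fold change was -0.23 ± 0.13 (95% interval -0.53 to 0.06; edgeR adjusted p = 0.255), with -0.03 within replicates 1 and 2 and -0.60 within replicate 3.

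Methylation was not analysed here, but CG dinucleotides, the sites at which TET enzymes act, could be counted in RefSeq promoter windows (GRCm38.p6) of 250 bases before the annotated start. Windows were found for 6 of the 9 genes, and Gpc1, Gpc6 and Sdc2 were not matched. The windows of Gpc4 and Sdc4 lay wholly inside the gene as deposited, and those of Gpc2 and Sdc1 partly (182 and 177 of 250 bases lay before it). Their CG numbers therefore do not describe only sequence before the deposited gene. The windows of Gpc2, Gpc3, Gpc4, Sdc1, Sdc3 and Sdc4 held 19, 25, 18, 10, 32 and 19 CG dinucleotides, against a median of 6 over 32851 windows. Sdc1 thus had the lowest number of the 6, above 62.2% of all windows, and Sdc3, of its own branch, the highest, above 95.4%. Gpc4, which rose like Sdc1, lay above 78.3%, and a relation of CG number to direction was not tested. The core motif TGTGGT of RUNX factors, searched on both strands, was in 1 of the 6 windows (Gpc2) and in 14.0% of all windows. Windows of the pair of one branch and of Gpc3, the neighbour that did not pass beside Gpc4, are printed up to the first base of the deposited gene or the annotated start, 5′ to 3′ on the strand of the gene, to show how far they differ, with each CG in capitals.
Sdc1 (chr12:8771146-8771322, plus strand, 6 CG in 177 bases): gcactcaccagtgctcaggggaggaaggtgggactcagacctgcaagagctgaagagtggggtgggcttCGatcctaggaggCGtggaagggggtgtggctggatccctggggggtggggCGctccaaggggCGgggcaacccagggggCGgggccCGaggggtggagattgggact
Sdc3 (chr4:130792287-130792536, plus strand, 32 CG in 250 bases): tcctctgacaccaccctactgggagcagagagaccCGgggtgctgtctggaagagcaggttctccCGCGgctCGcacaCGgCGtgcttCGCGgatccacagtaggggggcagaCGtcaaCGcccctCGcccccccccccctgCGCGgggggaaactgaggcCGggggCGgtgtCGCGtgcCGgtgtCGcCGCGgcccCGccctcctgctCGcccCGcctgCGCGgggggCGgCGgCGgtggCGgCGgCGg
Gpc3 (chrX:52613975-52614224, minus strand, 25 CG in 250 bases): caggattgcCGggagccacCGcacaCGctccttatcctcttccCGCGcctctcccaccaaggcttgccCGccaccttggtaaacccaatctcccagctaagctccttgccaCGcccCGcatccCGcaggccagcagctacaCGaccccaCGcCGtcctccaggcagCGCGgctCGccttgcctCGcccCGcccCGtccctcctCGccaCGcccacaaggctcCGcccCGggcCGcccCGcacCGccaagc

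The makeup of each family was described by its summed RPKM. Glypicans summed to 227.9 ± 28.7 RPKM in WT (194.9 to 246.7) and 219.9 ± 23.2 RPKM in TCKO (193.5 to 237.2), with overlapping ranges. Within that sum, Gpc1 held 47.1% ± 6.33 in WT (42.3% to 54.3%) and 28.5% ± 6.16 in TCKO (21.4% to 32.2%). Gpc4 held 28.7% ± 2.69 in WT (25.6% to 30.6%) and 47.0% ± 4.42 in TCKO (44.4% to 52.2%). The leading glypican was thus Gpc1 in each WT library and Gpc4 in each TCKO library, while Gpc3 held 19.8% in both genotypes. Syndecans summed to 366.2 ± 15.8 RPKM in WT (352.2 to 383.4) and 329.3 ± 24.8 in TCKO (300.7 to 343.9), ranges without overlap, as for 38.3% of tested genes taken singly. Sdc1 made up 11.9% ± 0.203 of this sum in WT and 18.5% ± 1.51 in TCKO, and Sdc2 33.5% ± 6.11 and 25.1% ± 1.91, the latter pair with overlapping ranges. These shares rest on the same counts as the fold changes, and no test was made of them.

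**Figure D3:**
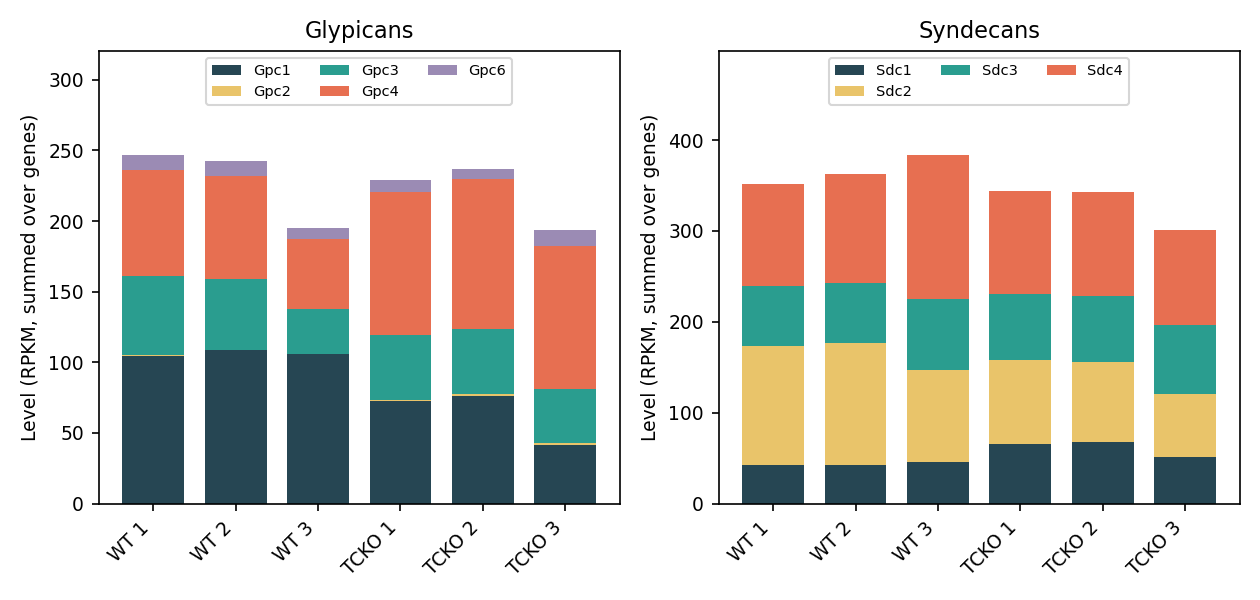
Summed level of glypicans (left) and syndecans (right) in each library, in RPKM from 0, with each bar divided by gene. Gpc1 forms the largest glypican segment in WT 1 to 3 and Gpc4 in TCKO 1 to 3, while the glypican totals of the genotypes overlap (194.9 to 246.7 and 193.5 to 237.2 RPKM). The syndecan totals do not overlap (352.2 to 383.4 in WT and 300.7 to 343.9 RPKM in TCKO).

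Ratios within a library do not depend on its scaling, and 5 were compared, each per length. Gpc4 to Gpc1 stood at log2 -0.47, -0.58 and -1.08 in WT and 0.48, 0.47 and 1.29 in TCKO. Gpc4 was thus at 0.472 to 0.723 of the level of Gpc1 in WT and at 1.38-fold to 2.44-fold in TCKO. Gpc4 to Gpc3, its neighbour, stood at 0.43, 0.52 and 0.67 in WT and 1.16, 1.19 and 1.39 in TCKO. The difference between genotypes was 1.46 for Gpc4 to Gpc1, 0.70 for Gpc4 to Gpc3, 0.74 for Gpc4 to Gpc6 and 0.40 for Sdc1 to Sdc3 on the log2 scale, and in all 4 the groups did not overlap (two-sided exact permutation test, p = 0.10 in each, the smallest that 3 against 3 libraries allow). Sdc2 to Sdc4 overlapped between genotypes, at 0.21, 0.16 and -0.64 in WT and -0.30, -0.39 and -0.59 in TCKO (difference -0.34, two-sided exact permutation p = 0.40). This design cannot reach an exact p under 0.05 for a single ratio. The ratios rest on the same counts as the fold changes. Gpc4 or Sdc1, whose own levels did not overlap between genotypes, was the numerator in all 4 ratios without overlap, so these are no separate support. The share of other gene pairs without overlap was not computed.

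The enzymes that build, sulphate and trim the chains, the cytoplasmic partners of syndecans and other heparan sulphate proteoglycans were followed as 5 lists with 58 genes, of which 49 were tested. Of these, 5 rose, 9 fell and 35 did not pass the edgeR test at an adjusted p under 0.05, which 17.7% of all tested genes passed. With the fold cutoff of 2 added, which 6.35% met, 7 were called, 3 higher (Sdcbp2, Spock1, Spock3) and 4 lower (Xylt1, Extl1, Hs6st2, Spock2). Sdcbp2 and Spock1 held at most 5 and 9 counts in any WT library, some at or below the floor of 3. They had enough counts to be tested through the TCKO libraries alone, so a fall was not open to them. Over the 49 genes the median log2 fold change was -0.12, beside 0.00 over all tested genes. With replicates 1 and 2 summed, 2 rose and 1 fell (Sdcbp2, Spock3 and Xylt1), and the adjusted p of the others ran from 0.0513 for Tgfbr3, 0.0531 for Hs2st1 and Hs6st2, and 0.0704 for Extl1 and Spock1, through 0.0870 for Tiam1, 0.0877 for Sulf2, 0.0893 for Spock2 and 0.0943 for Mmp2, to 0.328 for Pdcd6ip and 0.335 for Hspg2. With the replicate block over 6 libraries 6 rose and 12 fell, and with sums and block together 5 rose and 7 fell.

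Of 12 genes for linkage and polymerisation of the chain, all tested, 2 fell and none rose (list median -0.08). That share is close to the 17.7% of all tested genes that passed. Xylt1, a xylosyltransferase that starts the linker on the core protein, measured 26.5, 27.8 and 32.7 CPM in WT and 14.0, 8.08 and 9.65 CPM in TCKO (log2 -1.45 ± 0.20, edgeR adjusted p = 0.00285). Extl1, an exostosin-like glycosyltransferase of low level, measured 5.08, 3.89 and 4.0 CPM in WT and 1.48, 1.24 and 1.35 CPM in TCKO (-1.66 ± 0.25, adjusted p = 0.00417). Extl3, the gene of the list with the most counts, did not pass (238.7 ± 29.9 and 255.0 ± 6.75 CPM, adjusted p = 0.555).

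Of 13 tested modification genes among 19 listed, Hs2st1 rose and Hs6st2 fell (list median -0.15), again close to the 17.7% of all tested genes. Hs6st2, a 6-O-sulphotransferase, had the most counts of the list and measured 453.4, 462.6 and 345.4 CPM in WT and 206.3, 197.4 and 210.3 CPM in TCKO (log2 -1.04 ± 0.12, edgeR adjusted p = 0.00129). Its gene lies at chrX:51387212-51681856, 371164 bp from Gpc4, on the same strand. Without WT replicate 1 or 2 the change was -0.98 and -0.96, short of the fold cutoff. Hs2st1, the 2-O-sulphotransferase, measured 86.0, 85.9 and 70.7 CPM in WT and 136.3, 136.2 and 131.2 CPM in TCKO (0.73 ± 0.09, adjusted p = 0.00187). Neither overlapped between genotypes.

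Of 8 tested genes for trimming and shedding among 10 listed, 2 fell (list median -0.13), beside 17.7% of all tested genes that passed. Mmp2, a matrix metalloproteinase with the most counts of the list, went from 1319 ± 120.5 to 742.5 ± 113.1 CPM (log2 -0.83 ± 0.13, edgeR adjusted p = 0.00511). Sulf2, an enzyme that removes 6-O-sulphate from chains outside the cell, went from 353.2 ± 40.8 to 218.0 ± 12.0 CPM (-0.70 ± 0.10, adjusted p = 0.00341). Exons of Sulf2 overlap those of Ncoa3 on the other strand, which held up to 650 counts beside at least 1719 of Sulf2, and the strand setting of the counting is not given in the sources used here.

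Of 8 syndecan cytoplasmic partners, all tested, Sdcbp2 and Tiam1 rose and Pdcd6ip fell (list median 0.13), beside 17.7% of all tested genes. Sdcbp2, a PDZ protein of the syntenin family, went from 5, 4 and 3 counts in the WT libraries to 47, 32 and 36 (log2 3.26 ± 0.32, edgeR adjusted p = 7.0e-04). Tiam1, a Rac exchange factor, went from 31.0 ± 2.41 to 51.8 ± 7.28 CPM (0.74 ± 0.12, adjusted p = 0.00543). Pdcd6ip, the exosome-related protein ALIX and the list's gene with the most counts, went from 305.6 ± 8.49 to 251.6 ± 10.1 CPM (-0.28 ± 0.07, adjusted p = 0.0288). Its adjusted p was 0.121 and 0.101 without WT replicates 1 and 2, and 0.119 and 0.114 without TCKO replicates 1 and 2.

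Of 8 tested genes for other heparan sulphate proteoglycans among 9 listed, Spock1 and Spock3 rose and Spock2, Tgfbr3 and Hspg2 fell (list median -0.34). Of all tested genes, 17.7% passed. The 3 Spock genes encode the testicans, secreted proteoglycans of the matrix, and they moved in opposite directions. Spock3 measured 4.24, 4.99 and 2.79 CPM in WT and 36.4, 40.6 and 38.1 CPM in TCKO (log2 3.24 ± 0.18, edgeR adjusted p = 9.8e-05). Spock1 went from 3, 9 and 2 counts in the WT libraries to 37, 31 and 125, with TCKO replicate 3 far above the other libraries (3.79 ± 0.71, adjusted p = 0.0101). The log2 fold change of Spock1 was 2.92 without TCKO replicate 3 and 4.54 without WT replicate 2, and it passed in both cases (adjusted p = 0.00350 and 0.0330). Spock2 measured 47.6, 53.4 and 33.3 CPM in WT and 21.5, 17.5 and 11.7 CPM in TCKO (-1.41 ± 0.24, adjusted p = 0.00715). Tgfbr3, the TGF-beta co-receptor betaglycan, went from 42.4 ± 2.24 to 26.1 ± 2.28 CPM (-0.70 ± 0.10, adjusted p = 0.00278). Hspg2, which encodes perlecan, a matrix proteoglycan that cartilage also holds in quantity, went from 1768 ± 121.8 to 1308 ± 197.4 CPM (-0.43 ± 0.12, adjusted p = 0.0483). Chondrocyte markers were lower too, as given above, and whether the 2 are linked was not tested. The adjusted p of Hspg2 was 0.156, 0.0932 and 0.0761 without WT replicates 1, 2 and 3, and 0.157 without TCKO replicate 1 or 2.

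**Figure D4:**
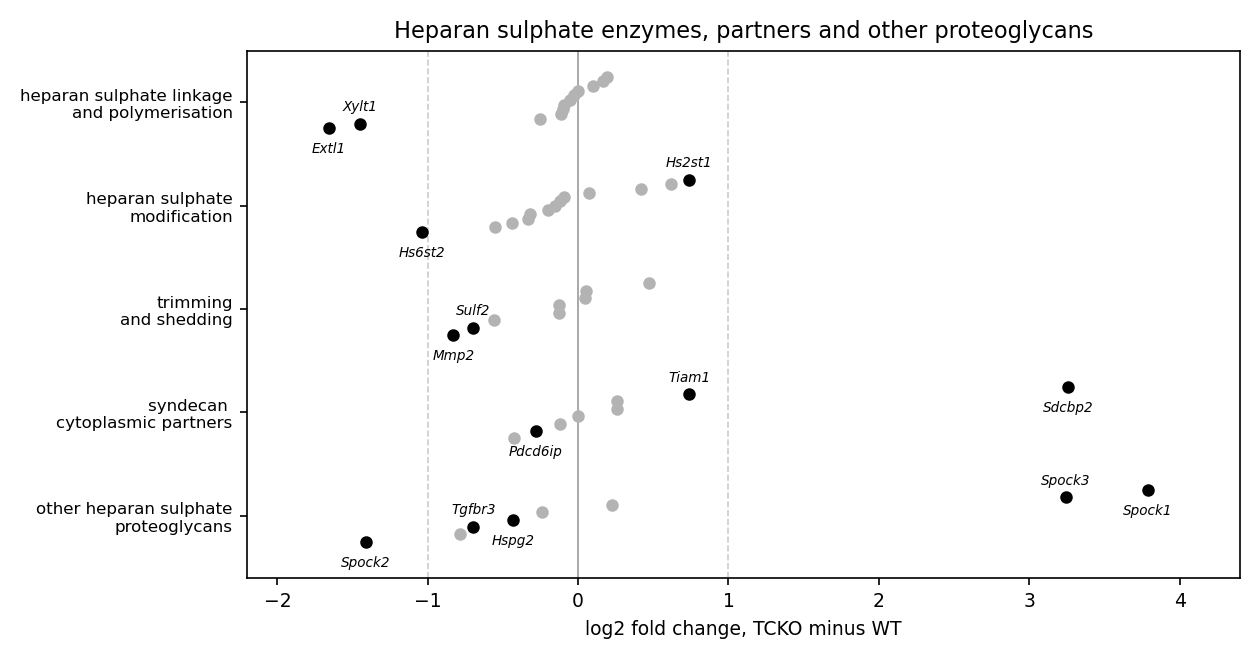
Log2 fold change (TCKO minus WT) of the 49 tested genes in 5 lists, 1 point per gene, spread vertically within its list only for legibility, with genes at an adjusted p under 0.05 in black and named and dashed lines at a 2-fold change. Sdcbp2, Spock1 and Spock3 lie beyond the right line and Xylt1, Extl1, Hs6st2 and Spock2 beyond the left line.

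The calls of the 4 glypican and syndecan genes that passed were sensitive to counting replicates 1 and 2 as separate libraries. When their counts were summed, leaving 2 libraries a genotype, the edgeR adjusted p was 0.193 for Gpc1, 0.142 for Gpc4, 0.269 for Sdc1 and 0.227 for Sdc2, and 386 of 13826 genes passed. With the replicate number added to the sums as a block, Gpc4 (adjusted p = 0.0495) and Sdc2 (0.0468) passed and Gpc1 (0.0678) and Sdc1 (0.183) did not, and 1150 genes passed. The directions were unchanged for these 4 genes in every alternative that was run.

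**Figure D5:**
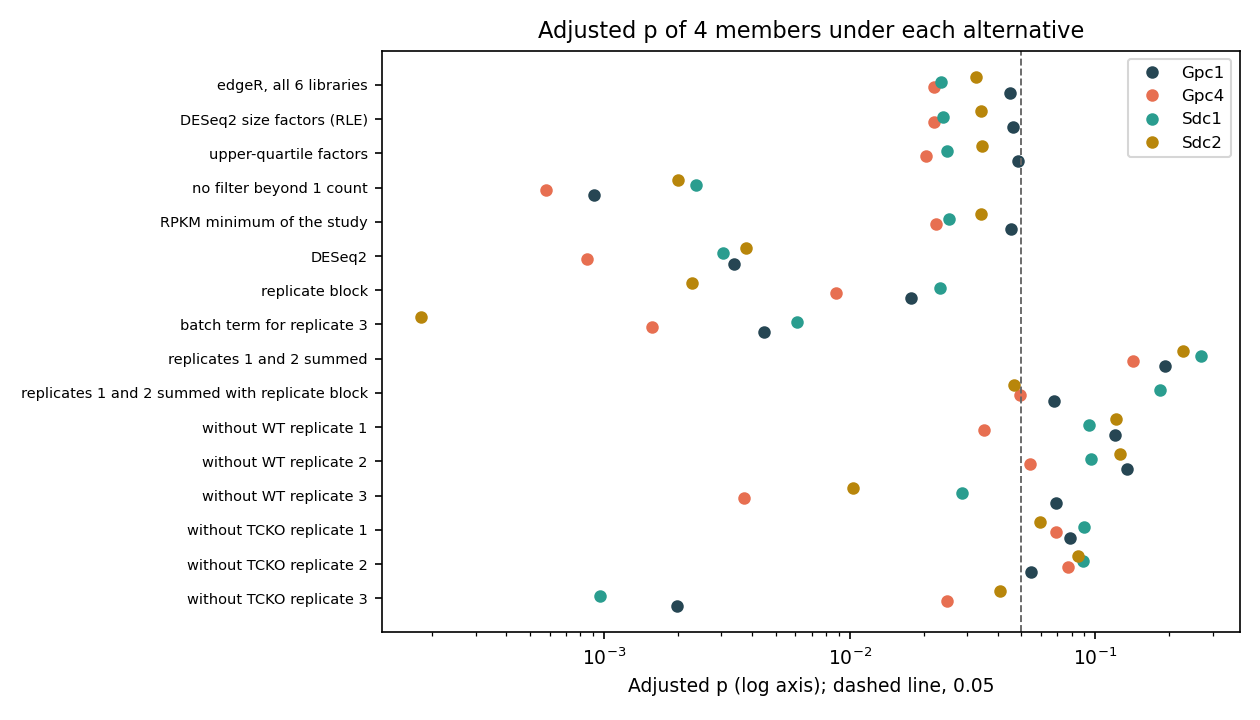
Adjusted p of Gpc1, Gpc4, Sdc1 and Sdc2 in the edgeR test of all 6 libraries and in each of 15 alternatives, on a log axis with a dashed line at 0.05. All 4 genes lie left of the line under other scalings and filters, DESeq2, the replicate block and the batch term over 6 libraries, and without TCKO replicate 3. All 4 lie right of it when replicates 1 and 2 are summed with no block and without WT replicate 2, TCKO replicate 1 or TCKO replicate 2, while in the sums with a block Gpc4 and Sdc2 lie left and Gpc1 and Sdc1 right.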

How the data were processed

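Poly(A) RNA was sequenced from 3 WT and 3 TCKO libraries, grouped by their titles. The authors aligned reads with STAR 2.7.0e and counted them over exons with featureCounts 2.0.0 (GRCm38, per the labels' processing notes), and the deposited values are raw counts per gene with exon lengths and coordinates. Whether counting used strand is not given in the sources used here, although the library kit was directional. All 6 columns were matched to samples.

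Counts were tested in R 4.3.3 with edgeR 4.0.16 (filterByExpr, TMM factors, quasi-likelihood test on genotype over 6 libraries, Benjamini-Hochberg adjustment over 13826 genes, which held 99.7% to 99.8% of the counts). A gene passed at an adjusted p under 0.05 and was called with a fold change over 2 as well. CPM and RPKM were computed from TMM-scaled counts. The script was tested on simulated data. DESeq2 1.42.0, other scalings and filters, a replicate block, a batch term for replicate 3, summed replicates and leaving out each library were run as alternatives. Floors cover counting error only, since reads lacked molecular identifiers.

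The glypicans, syndecans and gene lists were chosen with earlier results of these data known. Named in the lists were called genes and the gene with the most counts. Hs2st1, Sulf2, Tiam1 and Tgfbr3 were named after their values were seen. Deviations of same-numbered WT and TCKO libraries from their group means correlated at 0.204, 0.214 and 0.347 across genes. The numbers were treated as pairing only in the alternatives with a replicate block, and the main test took no pairing. No label states a pairing. WT replicates 1 and 2 correlated about alike with TCKO replicates 1 and 2 (0.188 to 0.225), so the values do not pair these libraries by number.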

Additional observations from a re-analysis of the deposited data

How the results depend on the processing

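Of the glypican and syndecan genes, 4 passed at an adjusted p under 0.05 with other scalings, other filters, DESeq2, the batch term and the replicate block, and none was called at 2-fold in any alternative. The block as pairing changed no call of these genes. With replicates 1 and 2 summed, 0 passed, and 2 passed (Gpc4, adjusted p = 0.0495, and Sdc2, 0.0468) with the block added to the sums. Leaving out 1 library left 0 to 4, with 0 without WT replicate 2, TCKO replicate 1 or TCKO replicate 2, and 1 (Gpc4) without WT replicate 1. Of the 49 list genes, 7 were called, 3 (Xylt1, Sdcbp2, Spock3) with replicates 1 and 2 summed, and 6 to 8 with 1 library left out (8 with Col18a1 without TCKO replicate 1). Over all genes, 2447 passed, 386 with summed replicates, 1150 with sums and block, 3249 with the block, 4272 with the batch term and 1153 to 3122 with 1 library left out. The sign of 2 genes that did not pass turned: Gpc3 had a log2 fold change of 0.003 (summed) and 0.041 (summed with block) and -0.288 to 0.089 with 1 library left out, and Gpc6 had 0.088, 0.078 and -0.253 to 0.042. The cause was not tested. Sums leave fewer libraries, so fewer residual degrees of freedom. At this depth Gpc2 rested on 16 to 57 counts a library.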
